A study of Mus musculus with 6 samples.

Results

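A set of antioxidant genes built around the transcription factor NRF2, thioredoxin and the peroxiredoxins was followed in mouse tissue labelled as left ventricle. They were chosen by name, 10 symbols in all, and each of the 10 was among the 14408 genes listed in the expression table. The data are RNA sequencing of 6 libraries, 3 from mice given L-proline and 3 from mice given phosphate-buffered saline (PBS) as vehicle, with the question how the amino acid alters the heart transcriptome in relation to ferroptosis and the nuclear receptor PPARγ. Both groups were male C57BL/6J mice that entered the study at 8 weeks of age and had been brought into heart failure with preserved ejection fraction by 8 to 12 weeks of high-fat diet together with L-NAME, a nitric oxide synthase inhibitor, at 0.5 g/L in the drinking water. L-proline was then injected intraperitoneally at 300 mg/kg per day for 4 to 8 weeks. There was no group on normal diet, so every comparison is between 2 groups that share the diet and L-NAME, and because the labels do not tie each library to its own animal, p-values describe the spread between libraries, part of which may be technical.

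NRF2, encoded by Nfe2l2, is held at a low level by KEAP1, which presents it for degradation, and oxidants or electrophiles that modify KEAP1 let NRF2 accumulate and bind antioxidant response elements together with small MAF proteins. Its targets include NQO1, which reduces quinones, and enzymes of the thioredoxin system. Thioredoxin (Txn1) reduces disulfides in other proteins and is itself reduced by thioredoxin reductase (Txnrd1) with NADPH, while TXNIP binds reduced thioredoxin and also lowers glucose uptake. Peroxiredoxins remove hydrogen peroxide and lipid peroxides, and sulfiredoxin (Srxn1) restores some of the peroxiredoxins when their active cysteine has been over-oxidised. In the heart these enzymes are known for limiting peroxide damage under metabolic and ischaemic stress.

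Promoter sequences are shown because several of these genes are known NRF2 targets, and because Txnip moved furthest. The RefSeq windows used (build GRCm38.p6) run from 250 bases before to 50 bases after a start site, and 11 windows covered 9 of the 10 members. The core of the antioxidant response element, TGACNNNGC, was searched on both strands and lay in a window of 4 members, Nfe2l2, Srxn1, Prdx1 and Txnrd1. It was present in 12.4% of all 32851 windows. Each match is printed 5′ to 3′ on the strand that carries the motif, with the 9 bases of the motif in capitals.
Nfe2l2, chr2:75704885-75704913, minus strand, 240 to 232 bases before the start: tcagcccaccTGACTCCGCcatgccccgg
Prdx1, chr4:116685456-116685484, minus strand, 133 to 125 bases before the start: ctacgggggaTGACTCAGCgctttccctg
Txnrd1, chr10:82859104-82859132, minus strand, 92 to 84 bases before one of its 3 starts: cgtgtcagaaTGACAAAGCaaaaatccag
Srxn1, chr2:152105542-152105570, minus strand, 28 to 36 bases after the start: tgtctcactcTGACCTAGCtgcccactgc

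The Txnip promoter holds a tandem repeat, 2 CACGNG boxes on the same strand with 5 bases between them, known as the carbohydrate response element through which MondoA and its partner MLX control this gene. That form, and CCAAT, were chosen with the sequence in view. The tandem form was found on either strand in 0.0487% of all windows, 16 in number, and in no other window of the members, and CCAAT was found in 37.4% of windows. In Txnip the repeat lies 85 to 69 bases before the start, a forward CCAAT lies 102 to 98 bases before it and an inverted one 137 to 133 bases before it. None of these overlap. The palindromic E-box CACGTG, present in 7.15% of windows, was in none of the members' windows. A match describes the letters only. The 250 bases upstream of Txnip follow, with the repeat and both CCAAT boxes in capitals.
Txnip, chr3:96557707-96557956, plus strand: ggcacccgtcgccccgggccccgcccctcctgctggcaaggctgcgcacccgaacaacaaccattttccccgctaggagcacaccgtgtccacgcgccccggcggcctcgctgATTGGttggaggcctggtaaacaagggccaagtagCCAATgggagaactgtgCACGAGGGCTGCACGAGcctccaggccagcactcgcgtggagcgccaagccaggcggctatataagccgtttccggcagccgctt

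Expression is given as FPKM, fragments per kilobase of gene model and per total of mapped fragments, as the authors deposited it. The values are whole multiples of what 1 fragment is worth, which gave library totals of 34990473 to 37498030 fragments and, for the members, between 1193 and 25311 fragments per library. Counting error was therefore at most 2.90% of any member's value. The labelled tissue, left ventricle, was not borne out by heart muscle transcripts: of 13 cardiomyocyte markers 7 were listed, and Ttn, Ryr2, Myl2, Tnni3 and Mb stayed at or below 0.228 FPKM in every library. Summed over listed markers, cardiomyocyte genes reached 34.8 to 36.6 FPKM in PBS and 16.9 to 20.2 in L-proline, and fibroblast genes 2050 to 2100 and 2770 to 3140. Tnnt2, which fell, made up at least 89.0% of the cardiomyocyte sum in each PBS library and 79.3 to 81.3% in L-proline, while Nkx2-5 had a log2 fold change of -0.03 and did not pass. Of 10 fibroblast markers 7 were listed, and Lum, Thy1 and Tcf21 were not. The fibroblast sum was carried by Col1a1, Col1a2 and Col3a1, which rose. Pdgfra fell by 0.34 on the log2 scale (limma, adjusted p = 0.0215) and Ddr2, at -0.23, did not pass. Pericyte and smooth muscle genes reached 941 to 1060 and 849 to 1050. Acta2, with means of 850 in PBS and 826 in L-proline, made up most of that sum. Myh11, Rgs5 and Vtn stayed at or below 0.145 FPKM in every library. Of 7 endothelial markers 4 were listed, 0 of them with a mean of at least 1 FPKM. Of 7 macrophage markers 5 were listed, and of 5 mesothelial markers 4. Endothelial genes reached 0.216 to 0.348 and 0.197 to 0.330, and macrophage genes 19.7 to 22.2 and 21.8 to 25.4. Of the macrophage genes Cd68 rose (log2 fold change 0.57, limma adjusted p = 0.0101). Cd14, which made up most of that sum, and Lyz2 did not pass (limma, adjusted p = 0.583 and 0.723). Csf1r and Mrc1 stayed at or below 0.274 FPKM. Mesothelial genes, led by Msln and Krt19, reached 51.2 to 52.6 and 26.3 to 27.5. In such bulk samples fewer cells of a type and less RNA per cell cannot be told apart, and the part that these marker shifts play in the changes below was not tested.

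Among the 10 members 1 gene rose with L-proline, Prdx1, and 2 fell, Txnip and Prdx5, while 7 did not pass. Passing means an adjusted p under 0.05 with limma, fitted to log2(FPKM + 1) over all 10500 genes with a mean of at least 1 FPKM, a filter that all 10 members cleared. Of all tested genes 19.6% passed, 788 (7.5%) as risen and 1268 (12.1%) as fallen. With the libraries scaled by median-of-ratios this split became 993 against 918, and after quantile normalization 1079 against 1015. The median log2 fold change of the members was -0.15 and that of all tested genes -0.06. The member count dropped from 3 to 1, Txnip alone, without PBS 2 or without PBS 3. The count over all genes dropped from 2056 to 976 without PBS 1, to 1435 without PBS 2 and to 874 without PBS 3.

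**Figure D1:**
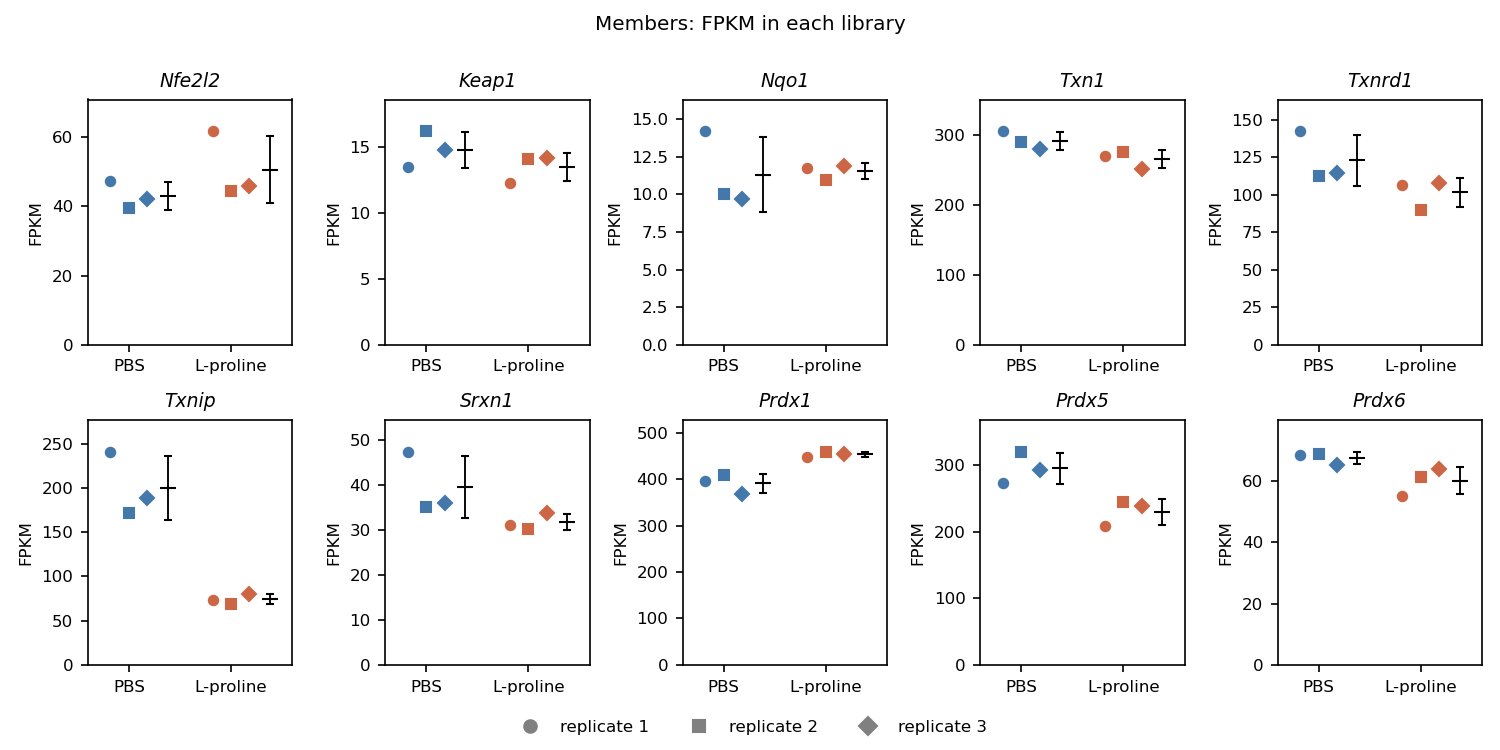
FPKM of each of the 10 members in each library, PBS in blue and L-proline in orange, with the symbol showing the replicate number and the black bar the mean ± SD of 3 libraries. The Txnip points separate by far the most, at 171.5 to 241 in PBS and 69.0 to 80.2 in L-proline, and Nfe2l2, Keap1 and Nqo1 overlap.

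The values of the 2 groups did not overlap for 7 members, 6 of them lower in L-proline and Prdx1 higher. This separation was seen for 40.1% of all tested genes, 24.0% lower and 16.0% higher. It depended on scaling. Under median-of-ratios scaling 3 members were apart, Txnip, Prdx1 and Prdx5, beside 38.5% of all tested genes, and after quantile normalization 4, these and Prdx6, beside 39.3%. Median-of-ratios scaling also took the log2 fold change of Txn1 to -0.07, of Keap1 to -0.06 and of Prdx6 to -0.11. Of the 7, Txn1, Txnrd1, Srxn1 and Prdx6 did not pass the test.

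Txnip showed the one large change of the group, falling to well under its PBS level in every L-proline library. It stood at 241, 171.5 and 189 FPKM in PBS 1, 2 and 3 and at 73.5, 69.0 and 80.2 in L-proline 1, 2 and 3. The lowest PBS library was thus far above the highest L-proline library, and the L-proline values lay closer together than the PBS values. In fragments these values rested on 25311, 17261 and 19418 in PBS and on 7557, 6766 and 8260 in L-proline. The group means were 200.5 ± 36.2 and 74.2 ± 5.61 FPKM (SD, n = 3), a ratio of 2.70, with a log2 fold change of -1.41 ± 0.12 (SE; limma, adjusted p = 0.000466). It ranked 14 among the 10500 tested genes, counted from the most negative log2 fold change. Under each of 17 alternative settings it passed, with log2 fold changes from -1.51 without PBS 2 to -1.27 without PBS 1 and adjusted p between 2.28e-05 and 0.00360. An antisense gene, Gm15441, overlaps exons of Txnip on the opposite strand in the GENCODE M21 annotation and has no row in the table used here. No source used here says whether counting used strand, so reads of the antisense partner cannot be told apart from those of Txnip.

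Thioredoxin itself, the protein that TXNIP binds, was among the most abundant members and did not pass. Txn1 was at 305, 289 and 279 FPKM in PBS 1, 2 and 3 and at 269.9, 275 and 251 in L-proline 1, 2 and 3. All 3 L-proline values lay just below the PBS values, with a log2 fold change of -0.13 and a 95% interval from -0.29 to 0.02 (adjusted p = 0.196, limma). Txnrd1, the selenium-containing reductase that recharges thioredoxin, was at 142, 112 and 114 FPKM in PBS and 106, 90.1 and 108 in L-proline. Here PBS 1 stood above all others and the gap between the groups was small, with a log2 fold change of -0.27 and an interval from -0.53 to -0.01 before adjustment (adjusted p = 0.128, and 0.0256 with sample weights). Leaving out PBS 1 took it to -0.16.

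The ratios of Txnip RNA to that of Txn1 and of Txnrd1, taken within each library, therefore differed between the groups. The level of Txnip was 0.791, 0.594 and 0.676 times that of Txn1 in PBS 1, 2 and 3, and 0.272, 0.251 and 0.319 times in L-proline 1, 2 and 3. Against Txnrd1 it was higher in all 3 PBS libraries, at 1.70, 1.53 and 1.65 times, and lower in all 3 L-proline libraries, at 0.692, 0.766 and 0.742 times. These ratios of FPKM follow mainly from the fall of Txnip and are given as a description.

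**Figure D2:**
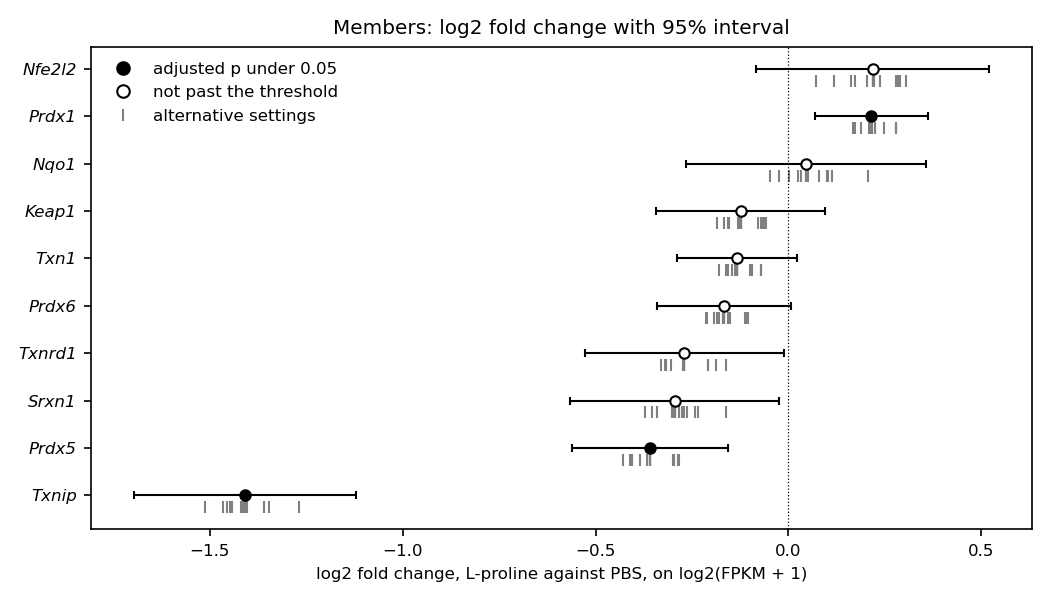
Log2 fold change of each member, L-proline against PBS on the log2(FPKM + 1) scale, as a circle with its 95% interval, filled where the adjusted p was under 0.05, with grey ticks for the 17 alternative settings. Txnip stands apart at -1.41, and the other 9 lie between -0.36 and 0.22.

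The peroxiredoxins did not move together. Prdx1, the abundant cytosolic enzyme, was the highest member in both groups and rose slightly, while Prdx5, found in mitochondria, peroxisomes and cytosol, fell. Prdx1 was at 396, 409 and 368 FPKM in PBS 1, 2 and 3 and at 448, 458 and 455 in L-proline 1, 2 and 3. Every L-proline value was above every PBS value, and the 3 L-proline values were nearly equal. The means were 391 ± 20.9 and 454 ± 5.14, with a log2 fold change of 0.22 ± 0.06 (adjusted p = 0.0494, limma). This narrow pass was lost on leaving out any one of the 6 libraries, with adjusted p from 0.0563 without L-proline 1 to 0.208 without PBS 3, while the log2 fold change stayed between 0.17 and 0.25. It was also lost with no filter, at an adjusted p of 0.0643.

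Prdx5 was at 273.5, 320 and 292 FPKM in PBS 1, 2 and 3 and at 208, 244.5 and 238 in L-proline 1, 2 and 3. The groups were apart, and L-proline 1 was the lowest. The means were 295 ± 23.3 and 229.9 ± 19.6, with a log2 fold change of -0.36 ± 0.09 (adjusted p = 0.0262, limma). The adjusted p was 0.0733 without PBS 2, 0.0927 without PBS 3, 0.0670 with median-of-ratios scaling and 0.0731 with voom on whole fragments. Exons of Prdx5 overlap on the opposite strand with Trmt112, a methyltransferase cofactor gene, which stood at 39.8 ± 1.13 in PBS and 43.6 ± 2.28 in L-proline and did not pass (adjusted p = 0.223). In terms of each other, Prdx1 was 1.45, 1.28 and 1.26 times the level of Prdx5 in PBS 1, 2 and 3 and 2.16, 1.87 and 1.91 times in L-proline.

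Prdx6, which reduces phospholipid peroxides, was at 68.4, 68.9 and 65.2 FPKM in PBS and 55.1, 61.4 and 63.8 in L-proline. The values were apart by a small margin, and the log2 fold change of -0.17, with an interval from -0.34 to 0.01, did not pass (limma, adjusted p = 0.154). Without L-proline 1 it was -0.11. The annotation holds a coding gene, Prdx6b, and a processed pseudogene related to Prdx6 by name, and a processed pseudogene of thioredoxin. Reads of Prdx6 and Txn1 may thus be divided between copies. None of these copies has a row in the table used here. Copies were looked for by name only, so other members may have copies under other names. Srxn1, the sulfiredoxin that repairs some over-oxidised peroxiredoxins, was at 47.4, 35.2 and 36.1 FPKM in PBS and 31.2, 30.3 and 33.9 in L-proline. PBS 1 again stood highest, the other 2 PBS libraries lay just above the L-proline libraries, and the log2 fold change of -0.30, interval -0.57 to -0.02 before adjustment, did not pass (adjusted p = 0.115). Without PBS 1 it was -0.16.

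The peroxiredoxins outside the 10 members belong to the list of other peroxide and superoxide removing genes. Prdx2, the second cytosolic enzyme, was at 353 ± 34.2 and 396 ± 35.5 FPKM with a log2 fold change of 0.17 (adjusted p = 0.253, limma). The mitochondrial Prdx3 was at 63.3 ± 0.512 and 57.8 ± 5.46 (log2 fold change -0.14, adjusted p = 0.269), and Prdx4 of the endoplasmic reticulum at 53.1 ± 5.02 and 57.8 ± 1.12 (0.12, adjusted p = 0.307). None of these 3 passed, and the ranges of Prdx2 and Prdx4 overlapped. Prdx3 was lower in all 3 L-proline libraries, as were 24.0% of all tested genes.

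**Figure D3:**
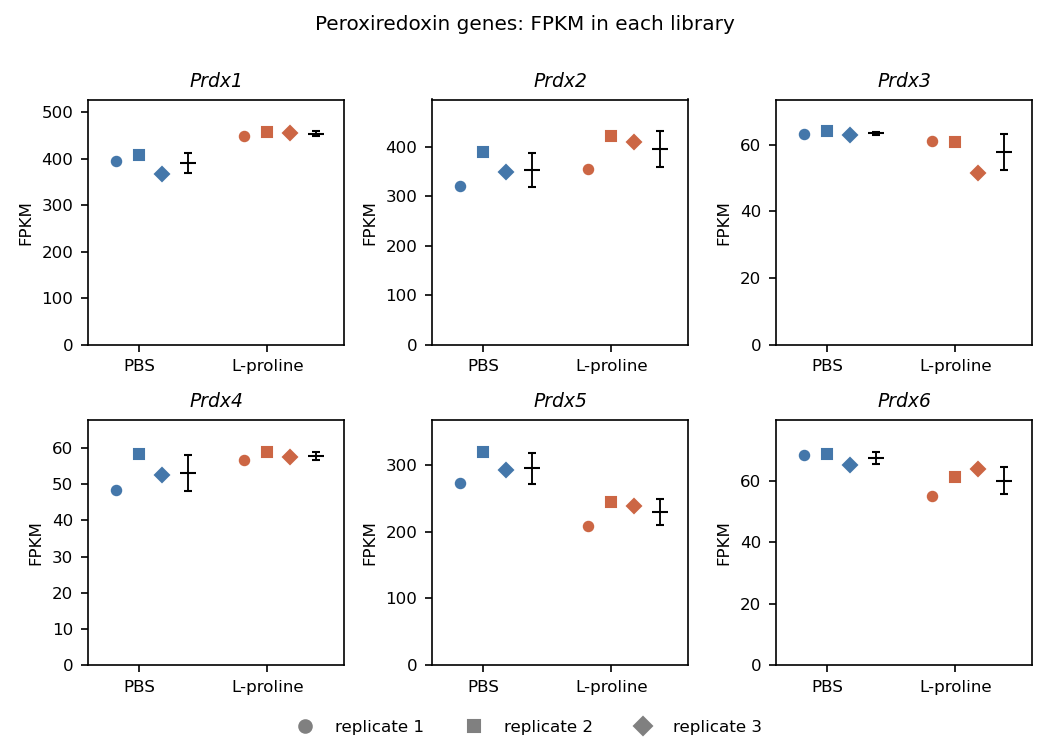
FPKM of the 6 peroxiredoxin genes in each library, PBS in blue and L-proline in orange, with the mean ± SD of 3 libraries as a black bar. Prdx1 is higher and Prdx3, Prdx5 and Prdx6 are lower in all 3 L-proline libraries, and Prdx2 and Prdx4 overlap. Only Prdx1 and Prdx5 passed the test.

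Neither NRF2 nor its repressor passed the test. Nfe2l2 was at 47.4, 39.6 and 42.1 FPKM in PBS 1, 2 and 3 and at 61.7, 44.4 and 45.9 in L-proline 1, 2 and 3. L-proline 1 alone lay well above the rest, PBS 1 was above both remaining L-proline libraries, and the log2 fold change of 0.22, with an interval from -0.08 to 0.52, did not pass (limma, adjusted p = 0.269). Without L-proline 1 it was 0.07. Keap1, the repressor, was at 13.5, 16.2 and 14.8 FPKM in PBS and 12.25, 14.13 and 14.15 in L-proline. The ranges overlapped, with a log2 fold change of -0.12 and an interval from -0.34 to 0.10 (adjusted p = 0.387). It was -0.19 without PBS 1 and -0.06 without PBS 2 or without L-proline 1. An antisense gene, Gm16754, overlaps exons of Keap1 and has no row in the table used here.

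Nqo1, the classical NRF2 target, was the lowest member in both groups. It was at 14.2, 10.1 and 9.70 FPKM in PBS and 11.8, 10.96 and 11.9 in L-proline. All L-proline values lay between the highest and the second highest PBS value, and the log2 fold change of 0.05, with an interval from -0.27 to 0.36, did not pass (limma, adjusted p = 0.836). The sign turned without PBS 2 (-0.02) or PBS 3 (-0.05). The log2 fold change was 0.21 without PBS 1, the high library, and between 0.02 and 0.08 without any one L-proline library.

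One library recurs in these spreads, though how often it stands highest over all tested genes was not counted. PBS 1 was the highest PBS library for 6 of the 10 members, namely Nfe2l2, Nqo1, Txn1, Txnrd1, Txnip and Srxn1. Its excess over the lowest PBS library was 1.46-fold for Nqo1, 1.40-fold for Txnip, 1.35-fold for Srxn1 and 1.27-fold for Txnrd1. For Prdx5 and Keap1 it was the lowest instead. Its total of 37498030 fragments was the highest of the 6, and FPKM is scaled to that total.

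FPKM is scaled to gene length, so levels can be set in order across genes. In PBS the order from the highest was Prdx1, Prdx5, Txn1, Txnip, Txnrd1, Prdx6, Nfe2l2, Srxn1, Keap1 and Nqo1. Neighbours whose ranges overlapped were Prdx5 with Txn1, Nfe2l2 with Srxn1, and Keap1 with Nqo1. In L-proline, Txn1 stood second at 265 ± 12.6 FPKM with Prdx5 next, and Txnrd1 stood above Txnip. There the single overlapping pair of neighbours was Prdx6 at 60.1 ± 4.49 with Nfe2l2 at 50.7 ± 9.59.

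The wider pathway was read from 5 lists of other genes, each described by its counts beside the 19.6% of all tested genes that passed. Among 14 tested partners and regulators of NRF2, 1 rose, 1 fell and 12 did not pass, with a median log2 fold change of -0.06. The one that fell was Maff, a small MAF protein that pairs with NRF2 and related factors on DNA. It was at 23.4, 23.9 and 22.2 FPKM in PBS and 8.11, 9.08 and 8.58 in L-proline, so the groups lay far apart, with a log2 fold change of -1.33 ± 0.08 (adjusted p = 6.84e-05, limma). Nfe2l1, which encodes the NRF2 relative that controls proteasome genes, rose. Its means were 78.0 ± 2.69 and 104.9 ± 8.93 FPKM and its log2 fold change 0.42 ± 0.08 (adjusted p = 0.00924). Without PBS 3 it was at 0.0538, which left Maff as the 1 passing gene of the list. That fit passed 874 of all tested genes, against 2056 with all libraries.

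Of 29 tested NRF2 target genes outside the members, 4 rose, 4 fell and 21 did not pass, and the median log2 fold change was -0.05. Ephx1, microsomal epoxide hydrolase, went from 212 ± 13.2 to 371 ± 32.1 FPKM, with a log2 fold change of 0.80 ± 0.08 (adjusted p = 0.000797, limma). Fth1, the ferritin heavy chain that stores iron, also rose, at 0.44 ± 0.07 (adjusted p = 0.00499), a change that was 0.10 with quantile normalization (adjusted p = 0.286). Aox1, an aldehyde oxidase, fell from 6.41 ± 0.883 to 3.46 ± 0.385 FPKM, with a log2 fold change of -0.73 ± 0.11 (adjusted p = 0.00460). Abcc1, a pump that exports glutathione conjugates, fell by 0.42 ± 0.08 on the log2 scale, with means of 42.1 ± 3.85 and 31.2 ± 0.559 FPKM (adjusted p = 0.00998). The targets thus moved in both directions. The number of targets that passed fell from 8 to 4 without PBS 2 or without PBS 3. Over all tested genes the count also fell, from 2056 to 1435 without PBS 2 and to 874 without PBS 3.

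The list of other thioredoxin-fold, glutaredoxin and methionine sulfoxide reductase genes had 17 tested members, of which 1 rose, 3 fell and 13 did not pass (median log2 fold change -0.03). Both other thioredoxin reductases were lower. Txnrd3 fell from 3.06 ± 0.183 to 1.73 ± 0.186 FPKM, with a log2 fold change of -0.57 ± 0.09 (adjusted p = 0.00511, limma). Txnrd2, the mitochondrial form, passed narrowly at -0.41 ± 0.12 (adjusted p = 0.0478) and missed the threshold without each of the 6 libraries in turn, at 0.0526 to 0.154. Glrx, a glutaredoxin that removes glutathione from proteins, fell from 104.9 ± 5.62 to 77.8 ± 11.4 FPKM (adjusted p = 0.0288). It missed the threshold when PBS 1 (0.0738), PBS 2 (0.0791) or PBS 3 (0.0915) was left out, and at 0.0566 with median-of-ratios scaling and 0.0634 with voom. Txnl4a, a spliceosome protein with a thioredoxin fold, rose from 5.05 ± 0.676 to 6.88 ± 0.454 FPKM (adjusted p = 0.0374). Leaving out PBS 1 (0.137), PBS 3 (0.116), L-proline 2 (0.0995) or L-proline 3 (0.0869) took it above 0.05, as did applying no filter (0.0609). The list's count fell from 4 to 1 without PBS 1 or without PBS 3 and to 2 without PBS 2, L-proline 2 or L-proline 3. Over all tested genes it fell from 2056 to 976 without PBS 1, 1435 without PBS 2 and 874 without PBS 3. Without L-proline 2 it was 1534, and without L-proline 3 it was 1616.

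Among 14 tested genes of the peroxide and superoxide list, which also holds the sestrins, 2 rose, 1 fell and 11 did not pass. The median log2 fold change was 0.10. Sesn2, a sestrin induced by amino acid and oxidative stress, went from 11.03 ± 1.13 FPKM in PBS to 18.9 ± 1.76 in L-proline, up 0.72 ± 0.10 on the log2 scale (limma, adjusted p = 0.00304). Gpx1, the cytosolic glutathione peroxidase, went from 215 ± 20.95 to 297 ± 43.1 FPKM (adjusted p = 0.0302), and catalase (Cat), the peroxisomal enzyme, from 40.95 ± 3.87 to 31.4 ± 3.17 FPKM (adjusted p = 0.0330). Both missed the threshold without PBS 1 (0.116 for Gpx1, 0.126 for Cat), PBS 3 (0.101 and 0.0983), L-proline 2 (0.0850 and 0.0974) or L-proline 3 (0.0722 and 0.0833). Without any one of these 4 libraries the list's count was 1. In the same order, 976, 874, 1534 and 1616 of all tested genes passed in these fits, against 2056 with all libraries. With median-of-ratios scaling Cat was at 0.0578, with voom at 0.0649, and Gpx1 was at 0.0512 with no filter.

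The last list held arrestin-domain relatives of Txnip and the transcription factors MondoA (Mlxip), ChREBP (Mlxipl) and their partner MLX. Of 5 tested members 1 rose, 1 fell and 3 did not pass. Those 3 were Mlxip, Arrdc2 and Arrdc3, with log2 fold changes of -0.04, -0.05 and 0.04 (limma, adjusted p = 0.784, 0.752 and 0.903). Mlxipl stayed at or below 0.02515 FPKM in every library and was not tested. Arrdc1, an arrestin-domain gene linked to vesicle budding, went from 4.71 ± 0.421 to 2.21 ± 0.586 FPKM, with a log2 fold change of -0.84 ± 0.14 (adjusted p = 0.00601, limma). Mlx rose by 0.51 ± 0.11 on the log2 scale, with means of 9.61 ± 1.16 and 14.1 ± 1.54 FPKM (adjusted p = 0.0157). It was at 0.0679 without PBS 1 and 0.0745 without PBS 3, which took the list's count from 2 to 1. Over all tested genes these 2 fits passed 976 and 874, against 2056 with all libraries.

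**Figure D4:**
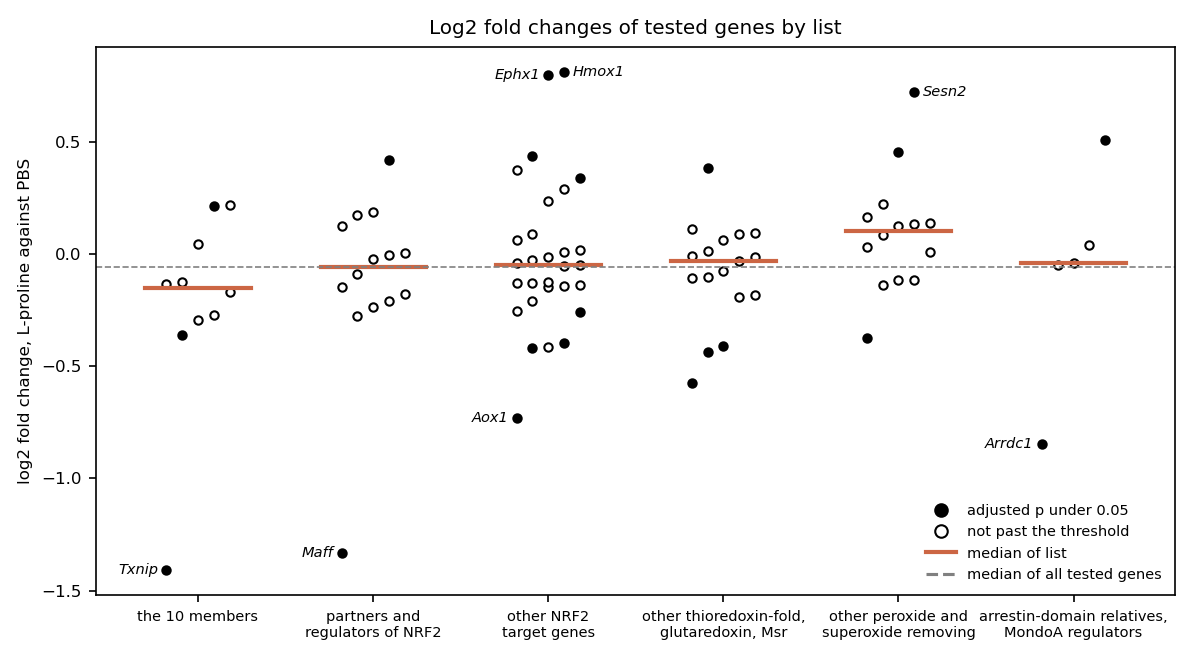
Log2 fold change of each tested gene (vertical axis) in the 10 members and the 5 wider lists, filled where the adjusted p was under 0.05, with the list median in orange and the median of all 10500 tested genes as a dashed line. List medians lie between -0.15 and 0.10, close to the -0.06 of all genes, and Txnip and Maff lie lowest.

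The genes whose pattern over the 6 libraries lay closest to that of Txnip were Il1rn, Mt2, Gdpd2, Maff and Rgs16. Likeness was measured as the root-mean-square distance between log2(FPKM + 1) values centred on the PBS mean, and it was 0.0943 for Il1rn, 0.134 for both Mt2 and Gdpd2, 0.182 for Maff and 0.189 for Rgs16. Il1rn, the interleukin 1 receptor antagonist, was, like Txnip, highest in PBS 1, at 9.15, 7.51 and 7.40 FPKM in PBS against 2.47, 1.94 and 2.39 in L-proline. Mt2, a metallothionein, was at 201, 168 and 139 in PBS and 62.3, 63.0 and 71.9 in L-proline. This ranking describes shape over 6 libraries and rests mostly on the difference between the groups.

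**Figure D5:**
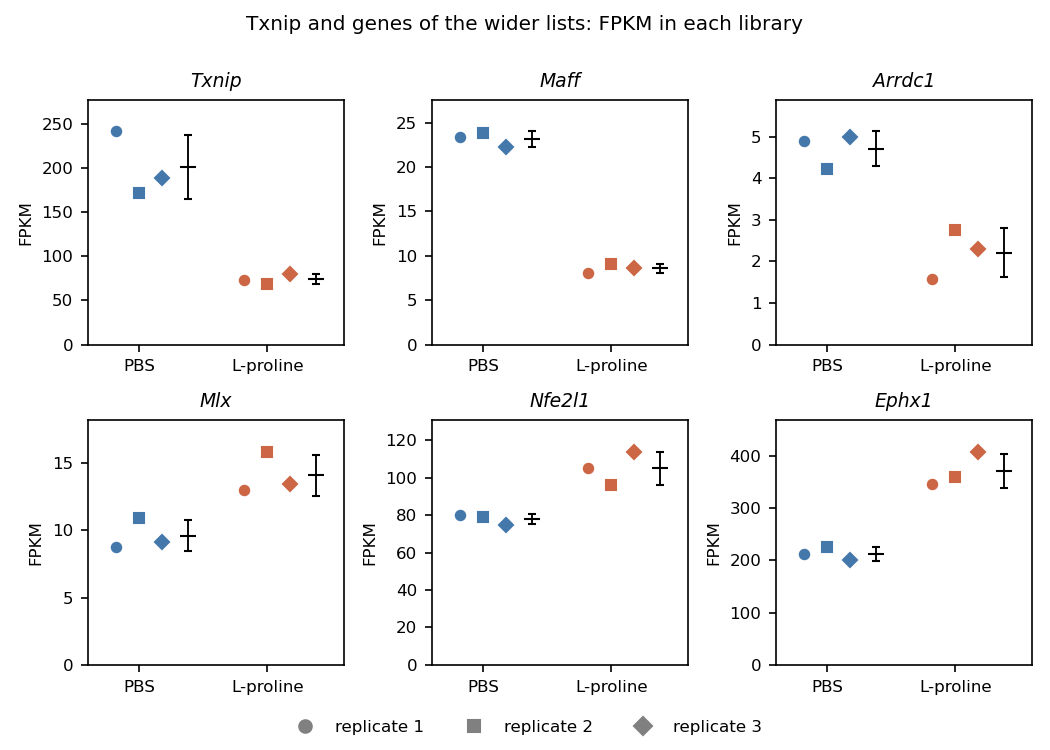
FPKM of Txnip and of 5 genes from the wider lists in each library, PBS in blue and L-proline in orange, with the mean ± SD of 3 libraries as a black bar. Txnip, Maff and Arrdc1 are lower and Mlx, Nfe2l1 and Ephx1 higher in all 3 L-proline libraries.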

How the data were processed

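Polyadenylated RNA from 6 libraries was profiled, 3 per group, with groups and replicate numbers taken from the sample titles. The authors deposited 1 table of FPKM values, per the file headers. HISAT2, HTSeq 0.13.5 and the build GRCm39 appear, without a role, in the submitters' processing notes, and the gene models and any gene filter are not given in the sources used here. FPKM divides by library total and gene length, so a value depends on the other abundant genes of its library.

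The total of each library was taken as the whole number that made the fragments of 13 mitochondrially encoded genes whole. Each gene's length was then the smallest whole number giving 6 whole values within 0.01, which worked for 14406 of 14408 genes. Tested on a simulated table, these steps found 6 of 6 totals and 98.9% of genes.

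The test was limma 3.58.1 (R 4.3.3) on log2(FPKM + 1), two-sided with a mean-variance trend, with Benjamini-Hochberg adjustment over genes whose mean reached 1 FPKM and a threshold of 0.05. A fold change on this scale understates low genes. On values simulated for this comparison, with a dispersion of 0.00729 and 10497 genes tested, limma recovered 20% of 50 genes changed 1.25-fold, 96% at 1.5-fold and 98% at 2-fold and 4-fold, with 2.50% of calls false. Changes near 1.25-fold were thus often missed there. The simulation gave every gene the same dispersion and no shifts shared within a library, so these rates may not carry over to the data.

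The 10 members and all lists were chosen with earlier results of these data known. Besides the members, the genes named are up to 4 passing genes of each list with the smallest p and the 5 genes closest in pattern to the member with the largest change. Prdx2, Prdx3 and Prdx4 complete the family and were chosen after their values were seen. So were Mlxip, Mlxipl, Arrdc2 and Arrdc3, which are further genes of the last list. The 17 alternatives cover pseudocount, filter, scaling, weights, variance model, voom on fragments, replicate block and each library left out. No sample column was left unused.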

Additional observations from a re-analysis of the deposited data

How the results depend on the processing

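Txnip passed under all 17 alternatives. Over the fits that leave out 1 library its log2 fold change ran from -1.51 to -1.27, that of Prdx1 from 0.17 to 0.25 and that of Prdx5 from -0.41 to -0.29. Prdx1 (log2 fold change 0.22) no longer passed with no filter, and Prdx5 no longer passed with median-of-ratios scaling (-0.30) or voom (-0.30). Txnrd1 passed with sample weights (-0.32). Nqo1 ran from -0.05 to 0.21 over those fits, and its sign turned to -0.0232 without PBS 2 and -0.0472 without PBS 3. Leaving out 1 library gave 874 to 2770 passing genes in all and 1 to 2 members, against 4671 genes with sample weights. For the lists it gave 1 to 2 partners of NRF2, 4 to 8 NRF2 targets, 1 to 3 thioredoxin-fold genes, 1 to 4 peroxide-removing genes and 1 to 2 of the Txnip relatives and MondoA regulators. Sample weights gave 5 partners and 5 peroxide-removing genes, quantile normalization 5 NRF2 targets, no filter, median-of-ratios scaling and voom each 2 thioredoxin-fold genes, and a filter at a mean of 5 FPKM left 1 passing gene of the last list, Mlx, since Arrdc1 lies under it. Over all genes 2094 passed after quantile normalization, 2116 with no filter and 1911 with median-of-ratios scaling. With voom 1891 passed, and 1661 with the filter at 5 FPKM. Non-overlapping members numbered 3 under median-of-ratios scaling (38.5% of all tested genes) and 4 after quantile normalization (39.3%). The causes were not tested.

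Same-numbered libraries correlated at 0.651, 0.416 and -0.348 in their deviations from the group means, so the numbers were not taken to pair them, and not every library correlated best with its own number. With the replicate block 2383 genes passed, 2 of them members, and Prdx1 (0.22) missed at an adjusted p of 0.0565 with limma. With 3 libraries a group, changes under about 1.5-fold were recovered in part in the simulation.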

Other observations

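Thioredoxin reductase runs on NADPH, and 6 genes whose enzymes supply it or feed the pentose phosphate pathway were read from the list of NRF2 targets after their values were seen. None of G6pdx, Pgd, Taldo1, Tkt, Me1 and Idh1 passed with limma, and 0 passed with voom, with which 1891 genes passed in all. Over all tested genes 19.6% passed with limma, so none among 6 says little about these genes. With limma 1 had an unadjusted p under 0.05, a share that was not counted over all genes. Their log2 fold changes ran from -0.15 for G6pdx to 0.29 for Tkt, a transketolase, which went from 57.2 ± 4.45 to 70.4 ± 8.63 FPKM (limma, adjusted p = 0.0798). Tkt was higher in all 3 L-proline libraries, as were 16.0% of all tested genes, and the other genes overlapped.

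In the wider lists 8 genes lay under the filter and were not tested. Their values did not overlap between groups for 3, Slc7a11, Arrdc4 and Map3k5, and overlapped for 5, beside 40.1% without overlap among tested genes. Slc7a11, Gsta3 and Arrdc4 are given for their known roles and were chosen after their values were seen. The cystine transporter gene Slc7a11 gave 110, 89 and 35 fragments in PBS 1, 2 and 3 and 326, 150 and 163 in L-proline 1, 2 and 3. The glutathione transferase gene Gsta3 gave 14, 6 and 15 in PBS and 64, 14 and 55 in L-proline. Arrdc4, the relative of Txnip that is also known as a MondoA target, gave 12, 29 and 12 fragments in PBS and 8, 7 and 1 in L-proline. Each value of Arrdc4 in L-proline was below each in PBS, and each value of Slc7a11 above, while Gsta3 overlapped.

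Hmox1, the heme oxygenase gene, had the highest log2 fold change of the NRF2 target list and was chosen after its values were seen. It was at 100.4, 70.9 and 68.0 FPKM in PBS 1, 2 and 3 and at 164, 99.95 and 163 in L-proline 1, 2 and 3. The ranges overlapped, PBS 1 lying just above L-proline 2, and the log2 fold change of 0.81 ± 0.21 passed (adjusted p = 0.0336, limma). It no longer passed without PBS 2 (0.0828), PBS 3 (0.123) or L-proline 3 (0.0939), or with no filter (0.0597).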
